A study of Mus musculus with 4 samples.

Results

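Imprinted genes were examined in the ATAC-seq peak lists of visceral adipose tissue from 4 CD-1 mice. ATAC-seq marks accessible chromatin by the sites at which a transposase can cut. The set held 35 named imprinted genes of 26180 genes with a curated RefSeq transcript, and the 35 fell into 19 imprinted domains. Each gene was looked up by its position alone: a promoter was called open in a library when a peak of that library shared at least 1 bp with the 500 bp either side of any of its start sites, and peaks were also counted from 5 kb upstream of the first start to the end of the gene. The 35 genes have 57 of the curated start sites.

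The samples were 2 control and 2 BPA libraries of 8 week old mice of CD-1, an outbred stock in which animals differ in sequence from one another. Controls descended from dams that received sesame oil, the vehicle. For BPA mice the ancestral dams received daily injections of bisphenol A, an oestrogenic compound used in plastics, at 50 mg/kg from embryonic day 7.5 to 13.5, and the lines were bred on without mating littermates. The generation is given differently in the labels and in the study's text, so none is named here, and no label gives a batch or the sex. Replicates are labelled as separate samples, and with 2 against 2 libraries no exact test between groups can reach 0.05, so they were compared by whether their values overlap.

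Imprinted genes are expressed mainly or only from 1 parental copy. Most lie in clusters that are ruled by a stretch of DNA methylated in the egg or in the sperm and kept so in every tissue of the offspring, the germline differentially methylated region (DMR). The methylated copy is bound by the zinc finger protein ZFP57 and closed, while the other copy is accessible, often as the promoter of a gene or of a long noncoding RNA. Several imprinted genes bear on fat: Dlk1 marks preadipocytes and holds back their differentiation, Mest follows the growth of fat cells, Igf2 and Grb10 act in growth and insulin signalling, and Gnas encodes the G protein through which lipolytic hormones signal. A peak list does not tell the 2 parental copies apart, so every value below is the sum of both.

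The lists held 72375 to 98060 peaks and gave no read totals. The lowest local background, which scales with depth, was 2.85 and 2.70 reads in the controls, 1.16 in BPA 1 and 3.80 in BPA 2, so BPA 2 was the deepest and BPA 1 the shallowest library. Peaks were therefore compared by rank, the position of a peak in its own list ordered by −log10 q, as a percent of the list with 0 as the strongest. The median fold over local background of all peaks was 3.91 and 4.29 in the controls and 5.69 and 5.01 in BPA. Folds given below were not adjusted for this. All 7 adipocyte marker genes had a promoter peak in all 4 libraries. Of 6 endothelial marker genes, 2 had a promoter peak in either control library and all 6 had one in either BPA library, with Pecam1, Cdh5, Tie1 and Erg at no peak in both controls.

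Imprinted promoters were open in this fat depot about as often as other promoters, but with peaks of low rank. A promoter peak was present in all 4 libraries for 19 of the 35 genes (54.3%), beside 51.2% of all curated genes, in no library for 6 (36.4% of all genes) and in some libraries for 10. The number open was 26 and 21 in the control libraries and 24 and 28 in the BPA libraries. The 19 came from 18 separate regions, since Sgce and Peg10 start head to head in 1 peak. Taking the best 20000 peaks of each list left 5 of the 35 open in all 4, beside 35.1% of all genes, and asking for the summit inside the window left 12, beside 44.2%.

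The 19 open promoters had a median mean rank of 26.5%, beside 8.66% for all 13404 genes open in all 4 libraries. Of the 19, 16 ranked behind the median of all those genes. Only Inpp5f, Ube3a and Copg2 stood ahead of it, at mean ranks of 0.844%, 1.36% and 5.70%. Inpp5f encodes an inositol phosphatase, Ube3a a ubiquitin ligase that is imprinted in neurons, and Copg2 a coat protein of transport vesicles. In the plot of ranks by library these 3 genes lie at the left edge in every library, whereas most other members are spread over the middle of the lists.

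**Figure D1:**
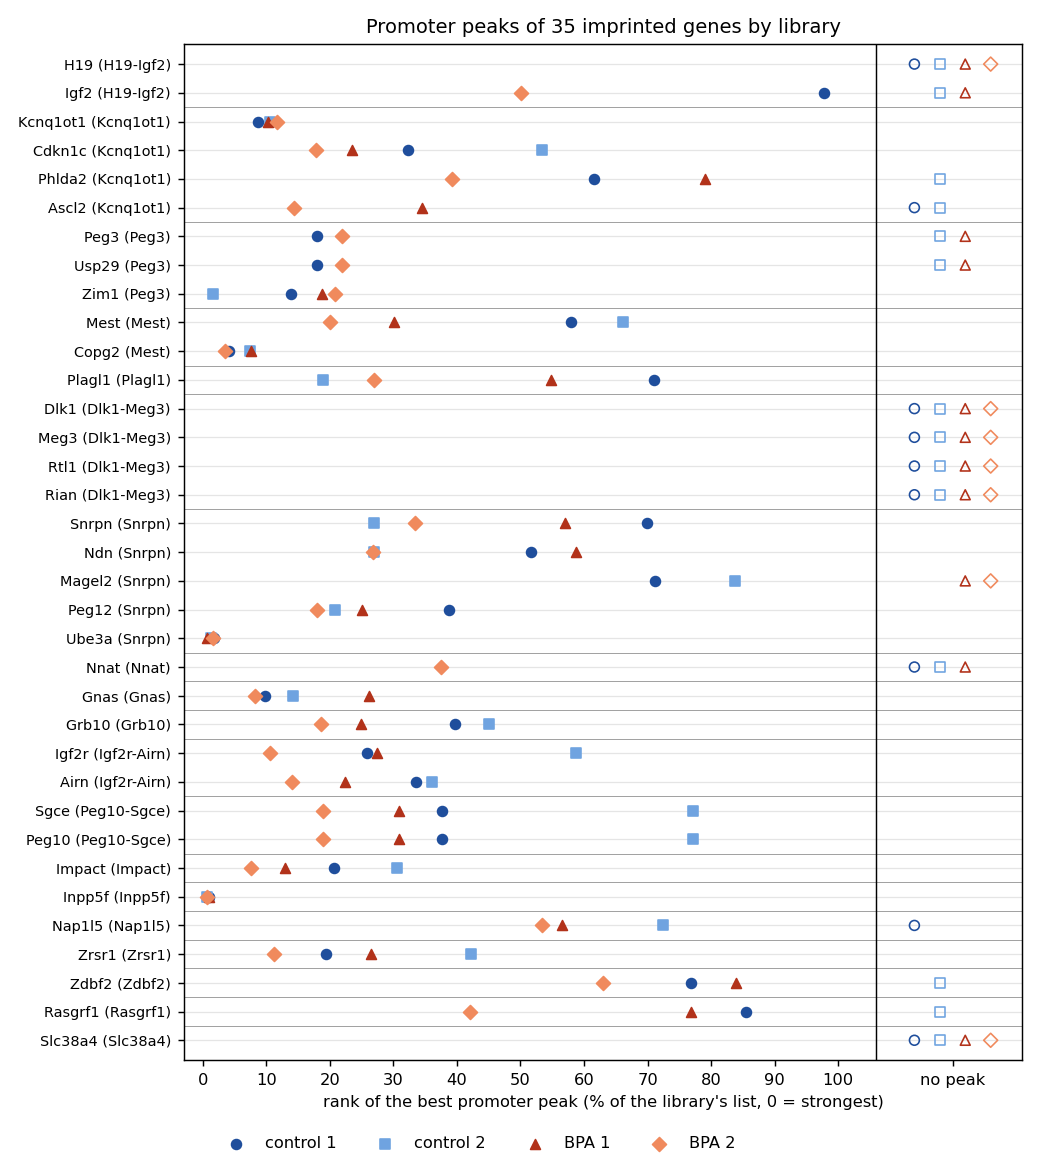
Rank of the best promoter peak in percent of the library's list (horizontal axis, 0 is the strongest peak) for the 35 imprinted genes, grouped by domain, with 1 symbol per library and open symbols at the right for libraries without a promoter peak. H19, Dlk1, Meg3, Rtl1, Rian and Slc38a4 have 4 open symbols, and Inpp5f and Ube3a sit under 2% in all 4 libraries.

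The 3 strongest promoters hardly moved between libraries. Ranks are given here in the order control 1, control 2, BPA 1, BPA 2. Inpp5f had 1.05%, 0.676%, 1.00% and 0.647%. Ube3a ranked at 1.83%, 1.33%, 0.681% and 1.60%. Copg2, which lies tail to tail with Mest, ranked at 4.20%, 7.39%, 7.68% and 3.50%. Control and BPA ranks overlapped for all 3.

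Inpp5f also has an internal start that is the imprinted one, expressed from the paternal copy. Its peaks ranked far behind the main start, at 58.0%, 65.7%, 50.2% and 29.3%. Both BPA ranks were ahead of both control ranks there. The fold over local background at this internal start was 3.95, 3.67, 5.60 and 6.37, against 8.71, 11.9, 13.3 and 11.5 at the main start.

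Germline DMR starts, the class of 14 genes whose own start lies in a germline DMR, were the next group. All 14 are expressed from the paternal copy. Of them 9 were open in all 4 libraries (64.3%), 4 in some and 1, the amino acid transporter gene Slc38a4, in none. The 9 had a median mean rank of 41.2%, and all 9 ranked behind the median of all open genes. Sgce and Peg10, both among the 9, share 1 peak, and its mean rank of 41.2% is that median. With this peak counted once, the median would lie between it and Airn (26.5%). Mean ranks of the 9 ran from 10.3% to 46.8%. The other 10 open members had a median of 20.1%. Leaving out a library kept the count of 9 or raised it to 10, but it was 4 with a −log10 q of at least 5, 3 with the summit inside the window and 1 among the best 20000 peaks, where 47.5%, 44.2% and 35.1% of all genes were open in all 4 libraries.

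**Figure D2:**
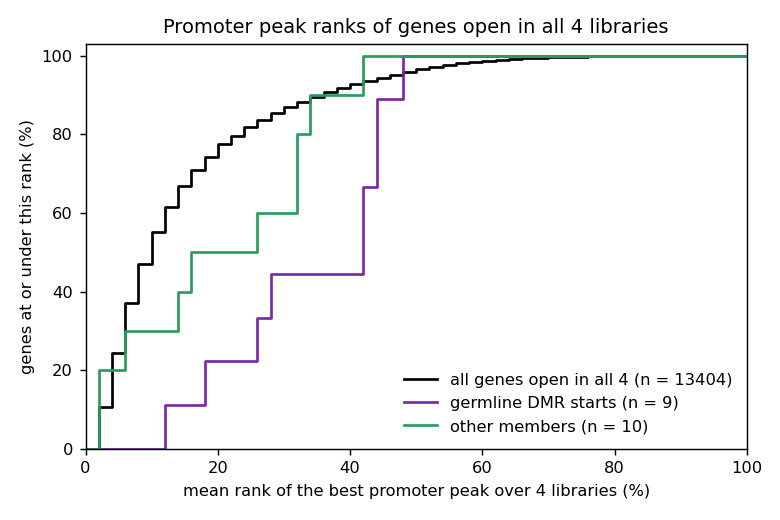
Cumulative share of genes (vertical axis, %) by mean rank of the best promoter peak over the 4 libraries (horizontal axis, %), for all 13404 genes open in all 4 libraries, the 9 germline DMR starts among them and the 10 other imprinted genes. The 9 germline DMR starts begin at 10.3%, to the right of the all-gene median of 8.66%.

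Most of these starts share a sequence feature that the choice of genes did not use. ZFP57 binds the methylated hexamer TGCCGC, and this hexamer was searched on both strands within 500 bp of 1 start per gene, taking the start open in most libraries. At least 1 copy lay at 11 of the 14 germline DMR starts, beside 34.0% of all 31601 curated start sites and 50.2% of the genes open in all 4 libraries. At least 3 copies lay at 7 of the 14 (50.0%), beside 3.90% of all start sites, 6.40% of the open genes and 1 of the 21 other members, Grb10. Mest had 10 copies, Plagl1 and Nnat had 6 each, Snrpn and Nap1l5 had 5 each, and Peg3 and Airn had 3 each. Kcnq1ot1, Impact and Zrsr1 had 0 in this window. Peg3 and Usp29 start close together, as do Sgce and Peg10, so each pair was largely counted on the same sequence. A match is only a string of letters, and the reference strain was read, not CD-1.

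The G+C content does not set these starts apart from other open genes, since its median was 55.8% at the 14 starts, 59.5% at the genes open in all 4 libraries and 54.6% at all start sites. The median observed to expected CpG ratio was 0.631, 0.741 and 0.510 in the same order. The first 120 bases upstream of 3 such starts (RefSeq, GRCm38.p6, strand of the gene) show how the hexamer sits there, and they are printed because each holds a copy within that stretch and outside any curated exon. Capitals mark the hexamer, on either strand. They are Mest (chr6:30737930-30738049, plus strand), Plagl1 (chr10:13090712-13090831, plus strand) and Nap1l5 (chr6:58907127-58907246, minus strand).
Mest: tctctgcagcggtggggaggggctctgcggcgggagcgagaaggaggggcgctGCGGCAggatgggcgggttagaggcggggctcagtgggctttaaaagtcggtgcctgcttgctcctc
Plagl1: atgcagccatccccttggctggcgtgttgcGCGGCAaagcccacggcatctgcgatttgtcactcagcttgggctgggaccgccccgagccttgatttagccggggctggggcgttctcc
Nap1l5: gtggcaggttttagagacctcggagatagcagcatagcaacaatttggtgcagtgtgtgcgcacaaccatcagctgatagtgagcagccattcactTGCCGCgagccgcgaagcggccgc

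**Figure D3:**
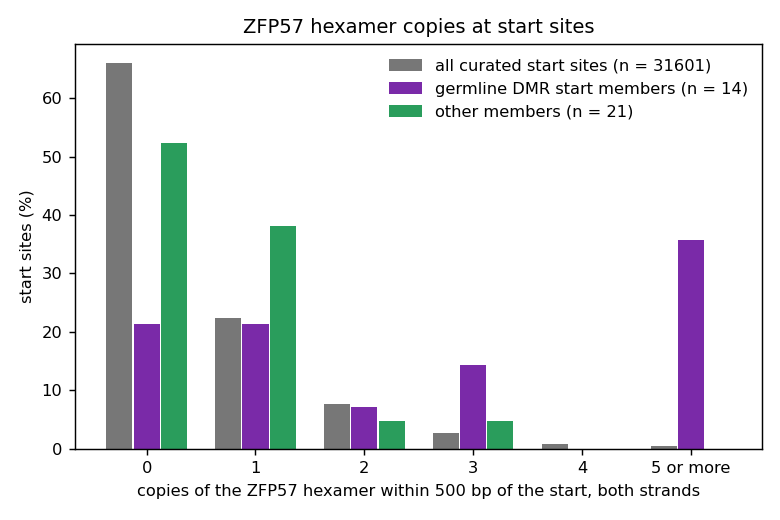
Share of start sites (vertical axis, %) by the number of copies of the ZFP57 hexamer within 500 bp on both strands (horizontal axis), for all 31601 curated start sites, the 14 germline DMR starts and the 21 other imprinted genes. Of the germline DMR starts 35.7% hold 5 or more copies, of all start sites 0.41%.

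Mest, an enzyme of the alpha/beta hydrolase family, was among the germline DMR starts with the widest gap between the groups. Its promoter peak ranked at 58.0% and 66.1% in controls and at 30.1% and 20.0% in BPA. The fold over local background was 3.51, 3.63, 6.17 and 5.31, beside medians over all peaks of 3.91, 4.29, 5.69 and 5.01. Both BPA libraries stood above both controls, but the raw fold was higher in BPA over all peaks as well. With folds ranked within each list, Mest kept this order. Sgce, a sarcoglycan gene, and Peg10, a gene derived from a retrotransposon, share 1 peak, which ranked at 37.6%, 77.2%, 31.0% and 18.96%. The control values were wide apart there, and BPA 1 was only 6.65 points ahead of control 1. The summit in BPA 2 lay 2007 bp inside Peg10, and over the whole merged region (chr6:4746567-4749595) the best ranks were 31.5% and 16.04% in controls and 23.8% and 18.96% in BPA, so that the groups overlapped.

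Long noncoding RNAs that start in a germline DMR were open throughout. Kcnq1ot1, the antisense RNA that silences Cdkn1c and its neighbours on the paternal copy, had the best mean rank of the 9 open in all 4 libraries, at 8.68%, 10.6%, 10.3% and 11.6%, with groups that overlap. In BPA 2 Impact and Zrsr1 ranked ahead of it. Airn, the antisense RNA that silences Igf2r, ranked at 33.5%, 36.0%, 22.4% and 14.0%, with both BPA libraries ahead. Their peaks lay at the start itself, with summits within 120 bp of it in every library.

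Impact, a regulator of the GCN2 stress kinase, ranked at 20.7% and 30.6% in controls and at 12.9% and 7.56% in BPA, without overlap. The summits lay 1857, 326, 1837 and 1832 bp inside the gene from its first start. With the summit inside the window, Impact was not open in all 4 libraries. Zrsr1, an intronless splicing factor gene inside an intron of Commd1, ranked at 19.5% and 42.2% in controls and at 26.4% and 11.3% in BPA, with overlap. Plagl1, a zinc finger factor, ranked at 71.0% and 18.9% in controls and at 54.8% and 27.0% in BPA. The controls of Plagl1 were further apart (36.9 points SD) than the group means of 45.0% and 40.9%. Snrpn, a spliceosome protein gene at the centre of the Prader-Willi domain, behaved alike, with 70.0% and 27.0% in controls and 57% and 33.4% in BPA, all at 1 of its 6 curated starts. Of the other members of that domain, Ndn, a MAGE family gene, and Peg12, an intronless gene, were open in all 4 libraries at 17.9% to 58.8%, with groups that overlap.

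The remaining germline DMR starts were open in part. Peg3, a zinc finger gene, and Usp29, a protease family gene that starts beside it, share a peak that reached their window in control 1 (17.9%) and BPA 2 (21.9%) only. All 4 libraries had a peak over the adjoining first kilobases of Peg3, in 1 merged region at 17.9%, 10.9%, 34.4% and 21.9%, where both control ranks were ahead of both BPA ranks. That region (chr7:6727453-6730386) holds 8 copies of the hexamer. Nap1l5, an intronless gene inside Herc3, had peaks at 72.4% in control 2 and at 56.5% and 53.4% in BPA. Nnat, a proteolipid gene inside Blcap, had a peak in its window in BPA 2 alone (37.6%), while the merged region just inside the gene was also open in control 2 (47.1%) and BPA 1 (28.4%). Zdbf2, a zinc finger gene whose germline DMR lies away from its start, was open in 3 libraries at 63.0% to 83.9%.

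H19 and Igf2, a fetal growth factor gene, form a domain in which CTCF bound to a control region upstream of H19 keeps shared enhancers from Igf2 on the maternal copy. H19, a noncoding RNA, had no promoter peak in any library. Igf2 had a peak at 1 of its 4 curated starts in control 1, at 97.7%, almost the last of the list, and in BPA 2, at 50.2%. The control region was open, however. A region at chr7:142580083-142580919, 2.4 kb upstream of the H19 start, had a peak in all 4 libraries, with ranks of 70.7% and 66.5% in controls against 30.7% and 15.9% in BPA.

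Both BPA libraries ranked ahead of both controls there by at least 35.8 points. The pile-up at the summit was 14 and 18 reads in the controls and 28 and 89 in BPA, over local backgrounds of 3.18, 4.28, 3.16 and 8.67. The fold was 3.59 and 3.60 in controls, 6.97 in BPA 1 and 9.30 in BPA 2. Medians over all peaks were 3.91 and 4.29 in controls, 5.69 in BPA 1 and 5.01 in BPA 2. BPA 1 and control 1 had near equal backgrounds, and BPA 1 had 2.0 times the reads of control 1 at the summit. A further region at chr7:142581761-142582073 had a peak in BPA 1 (67.8%) and BPA 2 (51.1%) and none in the controls. The opposite was seen 67.1 kb upstream of H19, toward Igf2 and outside both windows, where a region at chr7:142645025-142645423 had peaks in control 1 (43.2%) and control 2 (39.1%) and none in BPA, and this region was chosen after its values were seen.

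**Figure D4:**
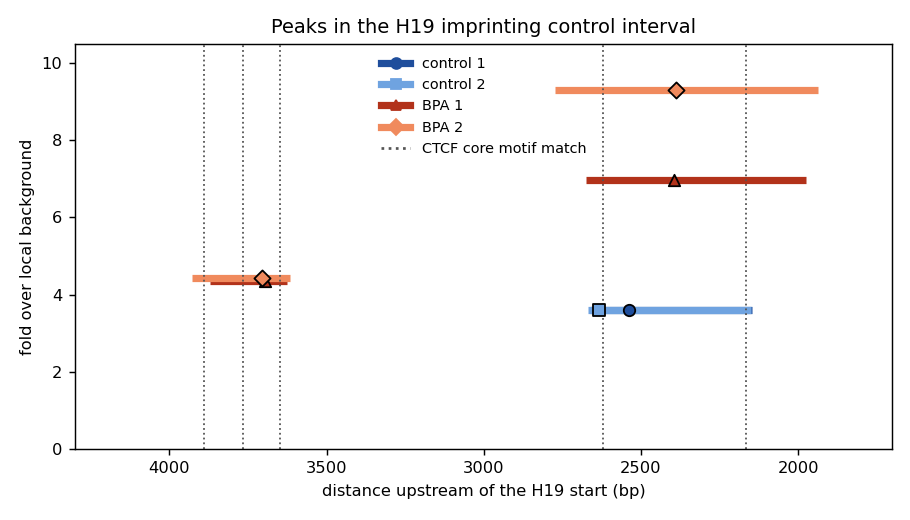
Peaks in the interval upstream of H19, with distance from the H19 start in bp (horizontal axis, gene to the right) and fold over the local background (vertical axis). Bars span the peaks, symbols mark the summits, dotted lines mark matches to GGNGGCAG, and the 2 control bars overlie each other at 3.59 and 3.60, below BPA 1 at 6.97 and BPA 2 at 9.30.

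The end of the CTCF core motif, GGNGGCAG, was searched on both strands of these 2 regions. It occurred 5 times, each time on the strand of H19, with 2 matches in the nearer and 3 in the farther region. The matches are printed with 16 bases on either side (RefSeq, GRCm38.p6, minus strand), because they show what the peaks cover, and capitals mark the match. Names give the distance in bp from the H19 start to the centre of the match.
2166 bp upstream (chr7:142580293-142580332): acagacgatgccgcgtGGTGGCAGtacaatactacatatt
2621 bp upstream (chr7:142580748-142580787): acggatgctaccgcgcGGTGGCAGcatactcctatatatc
3647 bp upstream (chr7:142581774-142581813): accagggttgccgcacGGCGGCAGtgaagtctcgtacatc
3766 bp upstream (chr7:142581893-142581932): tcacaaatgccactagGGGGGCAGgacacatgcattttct
3891 bp upstream (chr7:142582018-142582057): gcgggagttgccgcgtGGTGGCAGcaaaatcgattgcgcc

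The 4 peaks of the nearer region each covered 2 matches. Within 300 bp of the summit, 1 match lay in control 1, 1 in control 2 and 2 in each BPA library, since the control summits sat nearer the outer match. For comparison, 1 or more matches lay within 300 bp of the summit of 18.8%, 18.97%, 22.4% and 21.0% of all peaks of the 4 lists, and 2 or more at 2.56%, 2.59%, 3.44% and 3.04%. The nearer region had a G+C content of 51.2% and the farther one of 54.0%, and each held 3 copies of the ZFP57 hexamer.

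In the Kcnq1ot1 domain the maternally expressed neighbours were open as well. Cdkn1c, an inhibitor of cyclin dependent kinases, ranked at 32.4% and 53.5% in controls and at 23.5% and 17.9% in BPA, without overlap. Phlda2, which restrains placental growth, was open in 3 libraries at 39.3% to 79.1%. Ascl2, a factor of the trophoblast, was the 1 member with a promoter peak in both BPA libraries, at 34.6% and 14.4%, and in neither control. Its peaks had their summits 1.2 kb inside the gene, and the controls had peaks in the same merged region at 42.9% and 52.2% that ended outside the 500 bp window. With a window of 1000 bp Ascl2 was open in all 4 libraries.

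Igf2r, the receptor that clears IGF2, ranked at 25.9%, 58.7%, 27.4% and 10.6%, with control 1 between the BPA values. Grb10, an adaptor that restrains insulin signalling, ranked at 39.7% and 45.1% in controls and at 24.9% and 18.7% in BPA at its first start, and had no peak at its second start in any library. Fold over background of the peaks at that first start was 3.90, 3.91, 7.20 and 6.49. The summit in control 2 lay 1450 bp inside the gene, and those of the other libraries lay within 79 bp of the start. With the summit inside the window, Grb10 was not open in all 4 libraries. A region 11.4 kb from the first start (chr11:12025415-12026540) lay downstream of the second start, outside its 500 bp window. It had a peak in all 4 libraries, at 34.6%, 26.6%, 32.0% and 27.5%, with groups that overlap. Its G+C content was 64.8%, and it held 4 copies of the ZFP57 hexamer. Igf2r and Airn overlap, and their joint windows held 26 merged regions, the most of any domain. Of these, 11 (42.3%) were open in all 4 libraries, beside 26.3% of all merged regions. Another 5 had a peak in both BPA libraries only, beside 9.4% of all merged regions. Airn reads through the Igf2r promoter from the other strand, so a peak there belongs to both.

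Gnas has several first exons, and they differed in strength. The main start, which encodes the stimulatory G protein, ranked at 9.77%, 14.2%, 28.3% and 8.23%. The first exon of Nesp, expressed from the maternal copy, ranked at 82.0%, 75.3%, 84.4% and 68.9%. The start of exon 1A, which lies in a germline DMR, had no peak in control 1 and ranked at 35.2% in control 2, 26.2% in BPA 1 and 20.4% in BPA 2. A further curated start between those of Nesp and exon 1A (chr2:174297859) had no peak in any library. Control and BPA ranks overlapped at the first and the main start.

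The 4 members of the Dlk1-Meg3 domain, Dlk1, Meg3, Rtl1 and Rian, had no promoter peak in any library. Meg3, a noncoding RNA of the maternal copy, had no peak at all in its window of 35.7 kb. Dlk1 had 1 region 2.7 kb upstream of its start, in BPA 1 (84.9%) and BPA 2 (97.8%), both near the end of their lists. Rtl1, derived from a retrotransposon and needed in placenta, had 1 region in all 4 libraries, 4.3 kb inside the gene, at 32.7%, 38.7%, 33.6% and 39.0%. That region lies within 500 bp of the curated starts of Mir136 and Mir3071, microRNA genes of the domain that are not among the 35.

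The 5 members whose expression is confined to other tissues were set beside neuron, placenta, hepatocyte and germ cell genes. Of the 5, 1 was open in all 4 libraries, Zim1, beside 2 of 13 comparison genes, the neuron genes Snap25 and Syt1. Rtl1 among the 5 and 9 of the 13 comparison genes had no promoter peak in any library. Rasgrf1, an exchange factor of the brain, had weak peaks at 85.4% in control 1, 76.9% in BPA 1 and 42.1% in BPA 2. Without control 2 the count open in all libraries was 2, with Rasgrf1, and with a window of 1000 bp it was 3, with Ascl2 and Rasgrf1.

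Zim1, a zinc finger gene of the Peg3 domain, was an exception in strength. It ranked at 13.9% in control 1 and at 1.55% in control 2, and at 18.7% and 20.8% in BPA. The 2 controls differed with an SD of 8.76 points, and both were ahead of both BPA libraries, the only member with this order. The fold over background was 6.96 and 11.1 in controls and 10.8 and 10.4 in BPA, so on that measure the groups overlapped. Magel2, a gene of the hypothalamus, was the 1 member with a promoter peak in both controls and no BPA library. Its control peaks ranked at 71.2% and 83.8%, with pile-ups of 14 reads each, and none of the libraries kept it with a −log10 q of at least 5.

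Few promoters were split by group, with 1 of 35 open in both BPA and neither control library, beside 2.65% of all genes, and 1 of 35 open in both control and neither BPA library, beside 0.455%. The count in both BPA only was 4 without control 1 (4.63% of all genes), 2 without control 2 (3.82%) and 2 without BPA 1 (5.05%). Among the 19 promoters open in all 4 libraries, both BPA ranks were ahead of both control ranks for 7 (36.8%), namely Mest, Sgce, Peg10, Cdkn1c, Grb10, Airn and Impact, beside 40.6% of all open genes. Both control ranks were ahead for 1 (5.26%), Zim1, beside 18.7%. With the summit inside the window, 12 members were open in all 4 libraries. Both BPA ranks were ahead for 2 of these 12, Airn and Cdkn1c, beside 39.5% of all genes open under that setting. Sgce and Peg10, both among the 7 named above, share 1 peak, and their merged region overlapped between the groups. The share of 36.8% is near the background and shows nothing particular to imprinted genes. The first count was 13 of 22 without control 2 (50.5% of all open genes) and 14 of 19 without BPA 1 (59.4%), and the second count was between 2 and 4 with any 1 library left out (22% to 32.8% of all open genes).

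The difference of the group mean ranks (BPA minus control) had a median over the 19 of -8.24 points, beside -1.87 over all open genes, and it was negative for 15 of 19 members and 8663 of 13404 genes. Without BPA 1 the medians were -17.97 and -3.20, and without BPA 2 they were -4.39 and -0.865. The median SD between the 2 replicates of a group was 7.08 points, close to the size of the median difference. With the summit inside the window the median over members was -0.323, beside -1.57 over all genes.

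**Figure D5:**
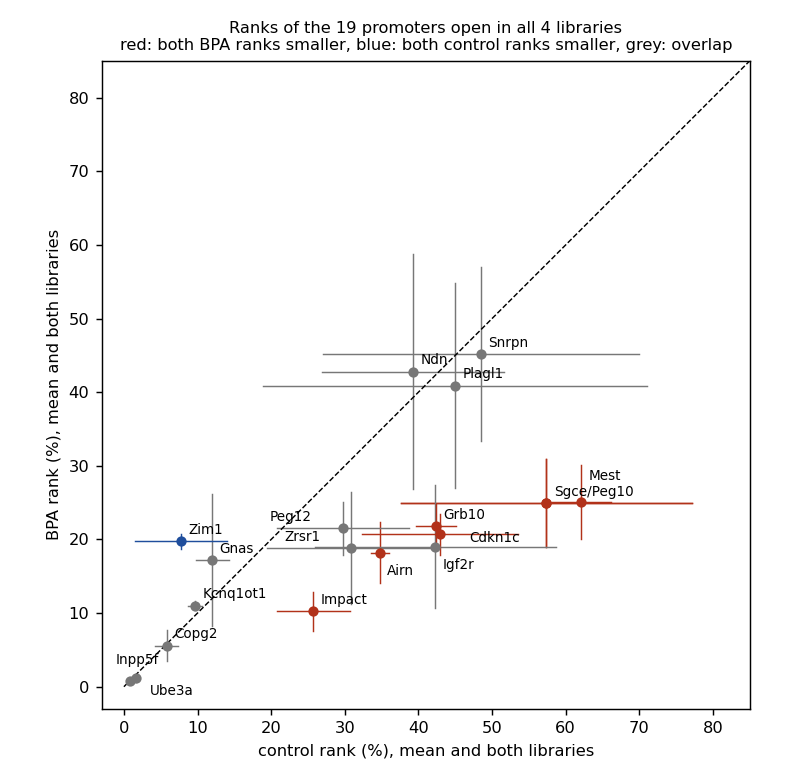
Mean promoter rank in controls (horizontal axis, %) against BPA (vertical axis, %) for the 19 imprinted promoters open in all 4 libraries, with lines spanning the 2 libraries of a group and a dashed line of equal ranks. The 7 red genes, from Impact at 25.7% against 10.2% to Mest at 62.1% against 25.1%, lie below the line, and Zim1 in blue lies above it.

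The order of the groups moved with base composition over all genes. With the 13404 open genes split into 5 equal classes by G+C content around the start, the share with both BPA ranks ahead was 21.4%, 32.0%, 43.0%, 50.2% and 56.2% from the lowest to the highest class, and the share with both control ranks ahead was 36.7%, 24.9%, 15.2%, 10.9% and 5.63%. The 7 members with BPA ahead fell 2, 0, 2, 1 and 2 into these classes, and the 19 members fell 7, 1, 2, 3 and 6. The part of base composition, of depth and of the endothelial marker promoters above in the differences of single members was not tested. In tissue, fewer cells of a type and less open chromatin per cell cannot be told apart.

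Beyond the start sites, the windows of the 35 genes held 153 merged regions of 147157 in the series. Of the 153, 51 (33.3%) had a peak in all 4 libraries, beside 26.3% of all regions, 13 had one in both BPA libraries only (9.4% of all regions) and 6 in both control libraries only (5.33% of all). At start sites 26 of 35 regions (74.3%) were open in all 4, away from them 25 of 118 (21.2%). The regions of the whole series were not split in this way, so this contrast cannot be called particular to imprinted genes. Among the 51, both BPA ranks were ahead in 12, beside 27.7% of such regions in the series, and both control ranks in 9, beside 27.5%.

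Counts by domain are small and were not tested against each other. In the Peg3 domain both control ranks were ahead in 5 of 8 regions open in all 4 libraries, beside 27.5% of such regions in the series. Both BPA ranks were ahead in 0, beside 27.7%. Among these 5 were Zim1, the Peg3 region described above, and 3 regions in the far part of Usp29. The last of them, 211 kb from the Usp29 start (chr7:6940685-6941512), ranked at 14.9% and 23.6% in controls and at 91.9% and 65.3% in BPA. In the Igf2r-Airn domain the counts were 0 and 3 of 11 (27.3%), the latter beside 27.7% of all regions open in all 4 libraries. The strongest of the 3, 52.9 kb inside Airn (chr17:12793655-12794672), ranked at 40.1% and 33.4% in controls and at 11.4% and 11.0% in BPA.

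Grb10 had both orders within 1 gene. A region 71.4 kb from its first start ranked at 70.4% and 28.1% in controls and at 16.3% and 19.3% in BPA. Another, 36.8 kb from that start, ranked at 21.9% and 19.7% in controls and at 54.0% and 58.4% in BPA. Gnas had 1 intragenic region, 59.6 kb from its first start, at 5.21%, 2.66%, 16.3% and 7.71%, ahead of every Gnas promoter in each of the 4 libraries and with both controls in front of both BPA libraries. Sgce had a region 52.2 kb inside the gene at 29.1% and 17.2% in controls and at 79.4% and 47.0% in BPA.

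Finally, peaks that overlapped between replicates by at least 50% of both lengths were merged into reproducible regions. Of 54 reproducible control regions in the windows, 4 had no peak in either BPA library, beside 11.6% of all reproducible control regions. They lay in Grb10, between Rtl1 and Rian, at the Magel2 promoter and in Rasgrf1. Of 54 reproducible BPA regions, 8 had no peak in either control, beside 19.9% of all. These comprised the farther region upstream of H19, 1 each in the windows of Dlk1, Kcnq1ot1, Impact, Inpp5f and Igf2r, and 2 where Igf2r and Airn overlap. The control count was 7 when BPA 1 alone was left out and 9 when BPA 2 was. Asking for 80% overlap left 1 control and 2 BPA regions.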

How the data were processed

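The authors prepared Omni-ATAC libraries from visceral adipose tissue, trimmed reads with trim_galore, mapped them to mm10 with bowtie2, and ran MACS2 on every library by itself (version 2.2.7.1 in the submitters' processing notes). The deposited lists give a score of 10 times the −log10 q-value as a whole number, the fold (ratio) of the summit pile-up over the local background, the −log10 p-value, the −log10 q-value and, as another column, the summit position. The peak extension and genome size are not given in the sources used here. The authors' threshold was a q-value of 0.05, so a missing peak means a site below it, not a closed site, and deeper libraries pass it more often.

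Lists were read as deposited and none was renormalised. Curated RefSeq transcripts (NM and NR accessions, GRCm38.p6, the assembly of mm10) gave 45756 transcripts, and all 35 members matched. Peaks of all lists were merged where they shared 1 bp, and reproducible regions were made with bedtools 2.31.1 (Python 3.11.15, numpy 2.4.6, pandas 2.3.3, scipy 1.17.1). Summit pile-up and background were recovered from the deposited fold and p-value, with a relative error under 1e-04 for at least 99.87% of peaks in each list. Overlap, pattern and pile-up steps were checked on simulated data.

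With 2 libraries per group an exact two-sided permutation p cannot be under 0.333, and no test was run. Counts of members stand beside the same share over all genes or regions. The members, their classes and the comparison lists were chosen with earlier results of these data known. Values are given in every library for members split by group, members open in all 4 with ranks that do not overlap, the 6 best mean ranks, germline DMR starts, tissue-restricted members and leaders of domains, and the others by range. Of the genes beside members, Nespas had no curated transcript and was not analysed here. The file of BPA 2 carries another replicate number than its label.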

Additional observations from a re-analysis of the deposited data

How the results depend on the processing

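Counts of at most a few genes move easily, so ratios of them say little. A stricter threshold, −log10 q of 5 or more, gave these values: 14 members were open in all 4 libraries, 2 in both BPA only, 0 in both control only, and 4 of the germline DMR starts in all 4, the median rank difference was -15.51 points, and 2 control regions were specific. Over all genes 47.5% were open in all 4, 3.61% in both BPA only and 0.271% in both control only, with a median of -4.67 points. Among the best 20000 peaks the members open in all 4 numbered 5, in none 15, in both BPA only 4 and in both control only 0, germline DMR starts 1, tissue-restricted members 0, both orders of ranks 0, the median difference -0.28, and specific regions 2 (control) and 4 (BPA). Over all genes these were 35.1% in all 4, 49.8% in none, 4.4% in both BPA only and 0.5% in both control only. BPA was ahead for 37.0% and control for 23.6% of all open genes, with a median of -3.23 points. A promoter of 1000 bp gave 0 in both BPA only, 3 tissue-restricted members and 3 with control ahead. Over all genes it gave 2.57% in both BPA only, and 18.6% of open genes had control ahead. The summit inside the window gave 12 in all 4, 10 in none, 0 in both BPA only, 2 in both control only, 3 germline DMR starts, 2 with BPA ahead and a median of -0.323. Ranking by fold gave 3 with control ahead (Gnas, Inpp5f and Kcnq1ot1, not Zim1), beside 15.85% of all open genes. Specific control regions were 1 at 80% overlap, and specific BPA regions 13 at 1 bp and 2 at 80%.

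Leaving out 1 library gave 1 to 4 members in both BPA only, 1 to 2 tissue-restricted members, 8 to 14 with BPA ahead, 2 to 4 with control ahead, medians from -17.97 to -4.39, and 7 to 9 specific control regions. Of 87 alternative values, 44 stayed within 1.5 times or 1 SD of the reported value and 43 moved further. Only the median rank difference has a sign, since the rest are counts, and it stayed negative under every setting. The median over all open genes was negative under every setting too, between -4.67 and -0.865, so the sign is not particular to members. With only the best peaks of each list kept, members were less negative than all genes (-0.28 against -3.23). The same held with the summit inside the window (-0.323 against -1.57). Under the other settings members were more negative than all genes. The cause of the 43 moves was not tested beyond the smaller lists themselves. No paired analysis was possible because no result comes from a test. The lists hold no reads under the q-value threshold, so a difference at a weak promoter was not detectable at this depth.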

Other observations

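Genes that keep imprints in place were open in this tissue. Of 7 such factors, 6 had a promoter peak in all 4 libraries, with a median mean rank of 9.20%, beside 51.2% and 8.66% for all genes. Zfp57, which binds the methylated hexamer, ranked at 17.3% and 31.5% in controls and at 19.1% and 14.9% in BPA. Zfp445, a related zinc finger protein, ranked at 8.90%, 9.43%, 9.97% and 7.42%. Trim28, their corepressor, ranked at 3.30%, 2.25%, 4.18% and 1.94%, and Dnmt1, the maintenance methyltransferase, at 3.72%, 9.20%, 5.21% and 2.19%. Setdb1, a histone H3 lysine methyltransferase, had no peak in BPA 1. Ctcf, which encodes the factor that binds the H19 control region, ranked at 9.21% and 19.6% in controls and at 7.40% and 1.63% in BPA, and was the only 1 of the 6 whose ranks did not overlap between the groups. Both BPA ranks were thus ahead for 16.7% of the 6, beside 40.6% of all open genes. Control was ahead for none of them, beside 18.7%.

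Genes beside the imprinted ones, 18 in all, were open in all 4 libraries in 10 cases (55.6%, beside 51.2% of all genes) and in none in 4 (22.2%, beside 36.4%), and the 10 had a median mean rank of 11.0%. Commd1, the host of Zrsr1, ranked at 1.38%, 3.85%, 2.17% and 2.29%, ahead of Zrsr1 in every library. Herc3, the host of Nap1l5, ranked at 8.10%, 13.9%, 12.0% and 4.97%, and Blcap, the host of Nnat, at 13.9%, 22.3%, 7.81% and 5.75%. In all 3 pairs the host promoter had the stronger peak or the only one in each library. Slc22a3, a transporter gene of the Igf2r cluster, ranked at 58.9% and 47.7% in controls and at 19.1% and 22.5% in BPA.

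Beyond the windows, 2 regions in intervals known to hold paternally methylated germline DMRs were chosen after their values were seen. Between Dlk1 and Meg3, 9.07 kb upstream of the Meg3 start, a region at chr12:109531462-109532391 had a peak in all 4 libraries, at 73.9%, 47.9%, 65.3% and 43.5%, while the 4 members had no peak at their own starts. Upstream of Rasgrf1 by 35.2 kb, a region at chr9:89874174-89874939 had a peak in all 4, at 31.9%, 24.3%, 16.3% and 17.4%, with both BPA ranks ahead of both control ranks. The 500 bp window of the Rasgrf1 promoter had no peak in control 2, but the merged region at that start did, at 77.2%.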
